A study of Mus musculus with 4 samples.

Results

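Endothelial cells, which line blood and lymphatic vessels, were taken from single-cell RNA sequencing of mouse intestinal adenomas. A cell was kept when its barcode held at least 1000 unique molecular identifiers (UMIs, each counting 1 captured RNA molecule), at least 200 genes and at most 20% mitochondrial UMIs. It was called endothelial when it had a UMI for at least 3 of Plvap, Kdr, Emcn, Eng and Ramp2, under 0.2% of its UMIs from Epcam, Krt8 and Krt19, at most 2 UMIs of Dcn and Col1a1, and none of Ptprc. The cells were thus chosen by their measured levels of these genes, which are given below as a description only. The rule found 207 of 12349 kept cells, or 1.68%. The adenomas came from 11-week-old C57BL/6 mice that all carried the ApcMin allele, a germline truncation of 1 copy of Apc. The group labelled ApcMin was ApcMin/+ with Lef1 +/+, and the group labelled VApcMinL was ApcMin/+; Lef1 fl/fl; Villin-Cre. Villin-Cre is active in the intestinal epithelium, so that in the VApcMinL mice the Wnt pathway transcription factor Lef1 was targeted in epithelial cells and not in endothelial cells. Each group had 2 libraries, 1 made with kit version 2 and 1 with kit version 3 of the droplet chemistry. Each library pooled 3 to 10 dissociated tumors without sorting. The number of mice in a library is not given in the sources used here, so p-values measure only the spread between these libraries.

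Gut endothelium is built from fenestrated capillaries, veins through which leukocytes leave the blood, small arteries and the lymphatic lacteals that carry absorbed fat. Plvap forms the diaphragms of capillary fenestrae and caveolae, Kdr is the main receptor for VEGF, Emcn is a sialomucin of capillaries and veins, Eng is a co-receptor for BMP9 and TGF-beta, and Ramp2 couples the receptor for adrenomedullin. Growing tumors recruit vessels by sprouting, in which tip cells lead under the control of VEGF and Notch.

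The cells were unevenly spread over the libraries. In the kit 2 pair, 123 came from the library labelled ApcMin and 69 from that labelled VApcMinL, and in the kit 3 pair 8 and 7. Kit 2 thus gave 192 of the 207 cells, and every kit 3 value below rests on 15 cells. Each pair of values is given with the library labelled ApcMin first, and levels are in CPM, the UMIs of a gene per 1000000 endothelial UMIs of the library. The summed UMIs of the endothelial cells were 612265 and 359390 in the kit 2 pair and 83914 and 73400 in the kit 3 pair. The median cell held 3807 UMIs, with a range of 1036 to 29025, and 1774 genes. Of the cells, 129 had a UMI for all 5 markers, 50 for 4 and 28 for 3. Just outside the rule lay 13 cells with 2 markers, 12 with too many epithelial UMIs, 9 with too many fibroblast UMIs, 1 with a Ptprc UMI and 1 over the mitochondrial limit. Only 1 of the 207 was among the highest doublet scores. Between the kit 2 libraries 18 kept barcodes were shared, none of them endothelial in both.

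Several facts of the libraries bear on what follows. In the kit 3 library labelled ApcMin 62.6% of barcodes with 1000 UMIs were lost to the mitochondrial limit, against 24.4% to 30.1% in the other libraries. Lef1 had no UMI in any endothelial cell, and 0 of 207 cells allows a share of cells with a UMI of up to 1.45%, which does not limit the share of cells that express it. In epithelial cells, where Villin-Cre acts, Lef1 stood at 4.82 and 10.3 CPM with kit 2 and 9.25 and 15.2 with kit 3, higher in the library labelled VApcMinL of each pair. Whether the 3' tags that were counted lie in the deleted stretch is not given in the sources used here, so the groups are named by their labels throughout. All mice were labelled male. Xist, the RNA of the silenced X chromosome, had 1 and 468 endothelial UMIs in the kit 2 pair and 0 and 37 in the kit 3 pair, and the Y-linked Ddx3y had 42 and 0 and then 12 and 2. The kit 3 library labelled VApcMinL thus held both. The sex of the mice and the Lef1 genotype therefore cannot be told apart in these libraries. RNA of red cells made up 29969 and 22.3 CPM with kit 2 and 0 and 0 with kit 3 in endothelial cells over 5 genes, with 4 cells of the library labelled ApcMin replicate 1 above 1% and the highest at 68.3%. The 12 immune genes summed to 4032 and 499.02 with kit 2 and 35.8 and 0 with kit 3, with Ptprc and Cd3e at 0. Fibroblast markers, of which the rule itself capped Dcn and Col1a1, summed over 8 genes to 44.2 and 30.7 with kit 2 and 0 and 0 with kit 3, against 10247 to 16962 in fibroblasts. The endothelial cells also held epithelial RNA. Over 8 epithelial genes, of which the rule capped Epcam, Krt8 and Krt19, it summed to 702 and 689 with kit 2 and 334 and 218 with kit 3. Over 12 secreted epithelial genes it summed to 1248 and 1483 with kit 2 and 1003 and 464 with kit 3. Those 12 genes summed to 19875 and 26828 with kit 2 and 33582 and 15236 with kit 3 in near-empty barcodes. The cells called fibroblasts here also held RNA of other cells. In them 11 genes of mural cells, which surround vessels, summed to 4404 and 6868 with kit 2 and 6990 and 9371 with kit 3. Those of the library labelled ApcMin replicate 1 held 40621 CPM of 12 secreted epithelial genes and 9271 of red cell genes.

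The markers that the rule did not use gave the cells the same identity. Among 21 other endothelial genes the median cell had a UMI for 15, against 1 in 237 fibroblasts and 1 in 9741 epithelial cells. At least 3 of the 21 were found in 205 of the 207 cells, in 55 fibroblasts and in 3254 epithelial cells. The highest number in an epithelial cell was 19. Fibroblasts were by definition cells with fewer than 3 of the 5 markers. These are descriptions, since genes that travel with the 5 markers cannot test a rule built on them. Pecam1, an adhesion molecule of endothelial junctions, stood at 744 and 875 CPM with kit 2 and 1361 and 1160.1 with kit 3. Cdh5, the cadherin that holds endothelial cells together, stood at 559 and 641 with kit 2 and 967 and 1051 with kit 3. Egfl7, a secreted endothelial protein, was found in 196 of the 207 cells at 1187 and 1525 with kit 2 and 1325 and 1488 with kit 3. In epithelial cells Pecam1 was at 2.39 and 2.23 with kit 2 and 0.412 and 0.810 with kit 3 and had a UMI in 1.18% to 3.8% of cells of a library, although those cells were deeper, with median UMI counts of 13565 to 27440.5 against 3373 to 12560 in endothelial cells. Among the markers of the rule, Plvap (chr8:71497765-71511752, minus strand, GRCm38) led at 3104 and 2735 with kit 2 and 2304 and 2293 with kit 3, and it was the only one above 2000 in every library. Kdr (chr5:75932827-75978458, minus strand) stood at 918 and 811 with kit 2 and 1266 and 873 with kit 3, and Emcn (chr3:137341067-137432185, plus strand) at 862 and 976 with kit 2 and 657 and 983 with kit 3. Eng (chr2:32646595-32682669, plus strand) stood at 1068 and 1123 with kit 2 and 907 and 764 with kit 3, and Ramp2 (chr11:101246028-101259546, plus strand) at 823 and 814 with kit 2 and 728 and 955 with kit 3. The plot of marker levels by cell class shows the separation library by library.

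**Figure D1:**
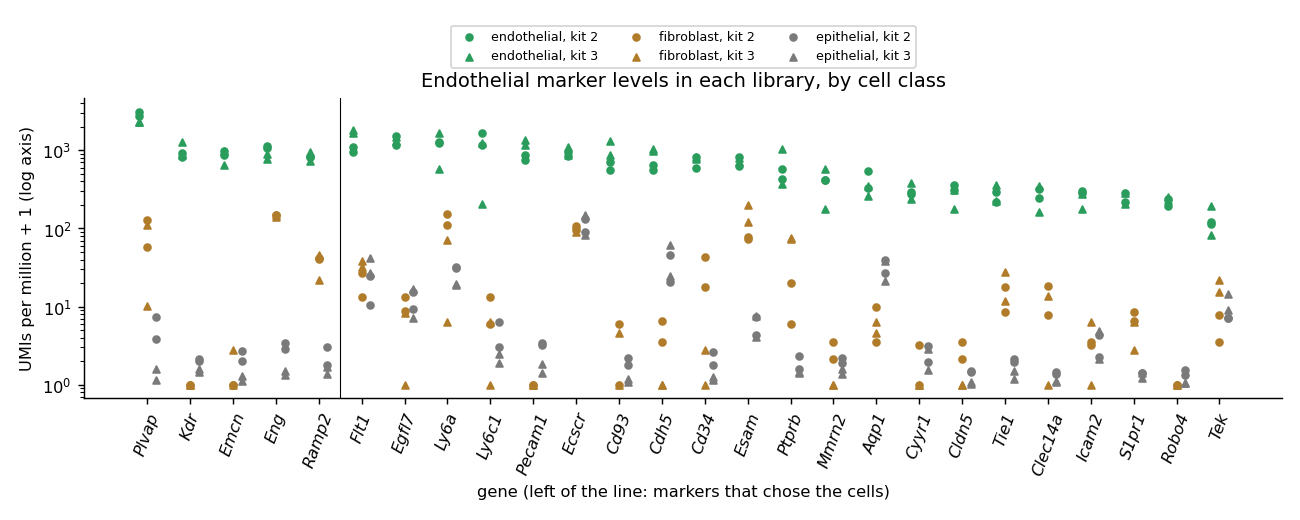
Level of each endothelial marker as CPM plus 1 (log axis) in the endothelial, fibroblast and epithelial cells of each library; circles are kit 2 and triangles kit 3 libraries, and the 5 genes left of the line chose the cells. Plvap lay between 2293 and 3104 in endothelial cells and every one of the 26 genes was higher in endothelial cells than in the epithelial cells of the same library.

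Among genes detected in a minimum share of endothelial cells of each library, those furthest above the rest of the adenoma included several of capillaries. Ranked by the mean log2 difference from all other kept cells, with a pseudocount of 1 CPM, the first was Fabp4 (chr3:10204088-10208576, minus strand), a carrier of fatty acids in capillary endothelium, at 10.25. It was detected in 203 of 207 cells and stood at 4758 and 3047 CPM with kit 2 and 6722 and 4122 with kit 3. Next came Plvap, Kdr, Emcn and Ramp2, which chose the cells, and then Cav1 at 8.33 and Cavin2 at 8.24, which coat caveolae, and Col15a1 at 8.32, a collagen of vascular basement membranes. Cd34 (8.23), Cd93 (8.17), Adgrl4 (8.17) and Ptprb (8.07), the phosphatase that restrains the receptor Tek, followed. Mgll (8.11), a lipase of monoglycerides, Gpihbp1 (8.04), which carries lipoprotein lipase to the capillary lumen, and Fam167b (8.09) completed the 15. Fabp4, Mgll and Gpihbp1 all handle fat, and Gpihbp1 was found in 94 of the 207 cells. The minimum share can leave out genes of less frequent vessel types. Ccl21a, a gene of lymphatic vessels found in 30 of the 207 cells, was not ranked, although its mean log2 difference was 8.30.

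Receptors for vascular growth factors were plentiful and most ligands scarce. Flt1, the decoy receptor of VEGF, stood at 1099 and 956 CPM with kit 2 and 1683 and 1843 with kit 3. The co-receptor Nrp1 stood at 708 and 669 with kit 2 and 454 and 437 with kit 3, Nrp2 at 167 and 195 with kit 2 and 418 and 259 with kit 3 and the lymphatic receptor Flt4 at 129 and 103 with kit 2 and 227 and 81.9 with kit 3. All 4 had UMIs in each library, and Flt1 was higher in both kit 3 libraries than in either kit 2 library. Vegfa itself had 0 and 4 UMIs in the kit 2 pair and none in the kit 3 pair, the 4 in 1 cell. Its level in fibroblasts was 40.4 and 84.0 with kit 2 and 136 and 258 with kit 3 and in epithelial cells 27.7 and 14.6 with kit 2 and 52.2 and 47.2 with kit 3. Of the other ligands, Pgf was found in 17 cells, Vegfc in 29, Vegfb in 12 and Vegfd in 2.

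The Tie receptors Tie1 and Tek had UMIs in 127 and 84 cells. Angpt2, the ligand that endothelium makes when vessels are remodelled, was in 45 cells, and Angpt1, a ligand made by the cells around vessels, in 1. Notch1 and Notch4 were in 46.4% and 30.0% of cells, the tip cell ligand Dll4 in 35.3% and the stalk cell ligand Jag1 in 23.2%. Heyl had no UMI. In the BMP branch, Acvrl1, the receptor that works with Eng, stood at 304 and 220.2 CPM with kit 2 and 310.4 and 218 with kit 3, and the target Id3 at 934 and 1123 with kit 2 and 681 and 792 with kit 3. Levels of different genes can be set side by side here only roughly. A gene's length does not enter, because 3' tags count 1 end of each RNA. Some levels nevertheless moved with the kit in opposite directions, as given below for collagen IV and Igfbp7.

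Targets of canonical Wnt signalling, which the ApcMin allele activates in epithelium, were almost empty in the vessels. Axin2 had a UMI in 4 of 207 cells, Notum in 4, Nkd1 in 7 and Rnf43 in 1. The epithelial cells held Axin2 at 56.3 and 46.9 CPM with kit 2 and 46.1 and 78.8 with kit 3. By contrast Fzd4 and Tspan12, the receptor and its partner for Norrin in endothelium, were in 83 and 87 cells, and Fzd4 stood at 109.6 and 100.4 with kit 2 and 215 and 205 with kit 3. Of the 4 Lef/Tcf factors Lef1 had 0 UMIs, Tcf7 was in 1 cell, Tcf7l1 in 23 and Tcf7l2 in 35. Apc was detected in 56 cells. Sox17, a factor of arterial endothelium that the list also holds, was in 88.

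Basement membrane genes were abundant. Igfbp7, a secreted protein of tumor vessels, stood at 12359 and 14466 CPM with kit 2 and 8334 and 7889 with kit 3, above every other listed gene in each library except the hemoglobin gene Hbb-bs in that labelled ApcMin replicate 1. Sparc, a collagen-binding matrix protein, stood at 3309 and 4106 with kit 2 and 4334 and 4709 with kit 3. The chains of collagen IV, Col4a1 and Col4a2, stood at 1428 and 1115 with kit 2 and 3964 and 3576 with kit 3 and at 1022 and 1084 with kit 2 and 2125 and 2238 with kit 3. Both collagen IV genes were higher in each kit 3 library than in each kit 2 library, whereas Igfbp7 was lower there, so levels were compared only within a kit.

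Marker sets were used to describe vessel types among the cells, without dividing them into separate classes. Each cell was first thinned to 1000 UMIs, and a set was called when at least 2 of its genes had a UMI. Of the 207 cells 150 carried the capillary set, 61 the tip cell set, 40 the venous set, 32 the lymphatic set, 20 the arterial set and 6 the cycling set. The sets overlapped, since 95 cells carried 1, 77 carried 2, 20 carried 3 and 15 carried none. The capillary set, carried by 72.5% of all cells, was also carried by 53 of the 61 tip cell carriers (86.9% of these and 35.3% of the capillary carriers). It was further carried by 14 of the 20 arterial, 20 of the 40 venous and 15 of the 32 lymphatic carriers. The capillary set includes Fabp4, which nearly every cell held, so carrying it does not separate capillary cells from the other types. Arterial and venous sets met in 2 cells, which is 10.0% of arterial and 5% of venous carriers. In cells that should lack these genes the 5 vessel sets were rare, at 0% to 1.27% of 237 fibroblasts and 0.0411% to 0.493% of 9741 epithelial cells. The fibroblasts had been limited to fewer than 3 of the 5 endothelial markers, so their low rate was partly set by that choice. The cut is a range and not a boundary, because 80 cells had 1 venous marker, 64 had 1 tip cell marker, 43 had 1 capillary, 30 had 1 arterial and 11 had 1 lymphatic.

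The lymphatic carriers stood furthest apart. In the kit 2 pair Ccl21a, the chemokine that draws dendritic cells into lymphatics (chr4:42772860-42773993, minus strand, a gene with near-identical copies among which reads may be split), stood at 31509 against 5.62 and 6578 against 0 CPM in carriers against other endothelial cells. Lyve1, a receptor for hyaluronan, stood at 3620.2 against 9.36 and 3687 against 18.9, and Mmrn1 at 1616 against 0 and 1904 against 0. Those genes made the set, so their gap describes it. Genes outside the set went with it too, such as the iron-binding lipocalin Lcn2 at 1888 against 11.2 and 2000 against 12.6, the fibronectin gene Fn1 at 1590.3 against 30.0 and 1398 against 41.0, the ferroxidase Cp at 789 against 0 and 675 against 3.15 and the factor Maf at 465 against 5.62 and 482 against 6.31. The genes named outside a set, here and below, came from a ranking by carriers over other cells in these same libraries. It took the 15 largest mean log2 differences among genes with at least 20 UMIs in the carriers of each library. Being higher in the carriers was thus part of the choice. Prox1, the factor that sets lymphatic identity, was in 28 endothelial cells.

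Venous carriers of the kit 2 pair held Madcam1, the address molecule for gut-homing lymphocytes, at 2234 against 81.9 and 1194 against 62.6 CPM against other endothelial cells. The platelet selectin Selp stood at 769 against 24.0 and 999.6 against 43.0 and the chemokine-binding receptor Ackr1 at 850.2 against 2.0 and 437 against 31.3. Outside the set, Bgn, a matrix proteoglycan, stood at 597 against 91.9 and 388 against 39.1 and the insulin receptor Insr at 217 against 61.9 and 369 against 35.2. Mgp was at 633 against 7.99 and 427 against 3.91 but lay in 3 of the 22 and 3 of the 17 carriers.

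Arterial carriers held Gja4, a connexin of arteries, at 897 against 119 and 916 against 90.8 CPM, and outside the set Ace, the angiotensin converting enzyme, at 1003 against 263 and 992 against 147 and the hypoxia factor Epas1 at 1214 against 302 and 713 against 229. The capillary carriers held Car4, a carbonic anhydrase of the capillary surface, at 436 against 0 and 329 against 6.32 and, outside the set, its relative Car8 at 129.6 against 24.4 and 115 against 6.32 and the secreted Scgb3a1 at 311 against 36.6 and 279 against 69.5. Scgb3a1 was also higher in arterial carriers (660 against 209 and 534 against 144) and in tip cell carriers (382 against 179 and 255 against 165). Tip cell carriers held the peptide Apln at 405 against 32.1 and 383 against 58.7 and Esm1, a proteoglycan of sprouting tips, at 1032 against 330.3 and 742 against 231. Both genes belong to the set, and Apln lay in 11 of the 38 and 4 of the 17 carriers. Esm1 was also higher in capillary carriers, at 646 against 220 and 559 against 94.7. Cycling genes were scarce, with 2.90% of endothelial cells against 6.75% of fibroblasts and 13.9% of epithelial cells carrying the set at the same 1000 UMIs.

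The subtype shares of the groups were not told apart. The capillary set was carried by 98 of 123 and 40 of 69 cells in the kit 2 pair and 5 of 8 and 7 of 7 in the kit 3 pair, which is 79.7%, 58.0%, 62.5% and 100%. Within the kit 2 pair the share was lower in the library labelled VApcMinL by 21.7 percentage points, and within the kit 3 pair it was higher by 37.5, on 7 and 8 cells. Tip cell shares were 30.9%, 24.6%, 25% and 57.1%, and these too went opposite ways, with differences of -6.26 and 32.1 points. Venous shares were 17.9%, 24.6%, 0% and 14.3%, and arterial shares 8.13%, 14.5%, 0% and 0%. A count of 0 of 8 or 0 of 7 cells leaves exact 95% upper bounds of 36.9% and 41.0%. Lymphatic shares lay close together, at 15.4%, 15.9%, 12.5% and 14.3%. Without thinning, so at each cell's own depth, the capillary shares were 95.1%, 87.0%, 87.5% and 100%, the tip cell shares 65.9%, 62.3%, 87.5% and 100% and the venous shares 48.0%, 52.2%, 75.0% and 71.4%. The arterial shares were then 22%, 31.9%, 25% and 14.3%, the lymphatic shares 19.5%, 15.9%, 25% and 14.3% and the cycling shares 13.8%, 18.8%, 12.5% and 42.9%. With 2 libraries a group the exact permutation test of a share has 6 arrangements and cannot go below p = 0.33, and for each of the 6 sets the two-sided p was 0.667 or 1, adjusted to 1 over the 6.

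**Figure D2:**
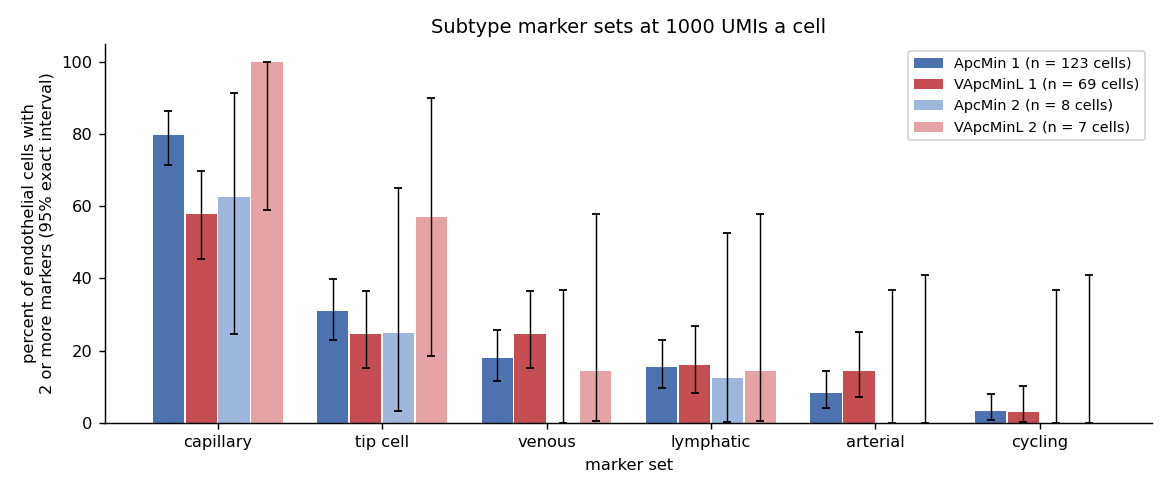
Percent of endothelial cells of each library carrying 2 or more genes of a marker set after thinning to 1000 UMIs, with 95% exact binomial intervals that cover counting error only. The capillary set was the most frequent in all 4 libraries, at 58.0% to 100% of cells, and the intervals of the kit 3 libraries, on 8 and 7 cells, are the widest.

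The part that vessels took of the adenoma was compared between the groups through shares of cells. Endothelial cells were 4.40% (123 of 2797, 95% interval 3.67 to 5.22%) of kept cells in the kit 2 library labelled ApcMin and 2.33% (69 of 2959, 95% interval 1.82 to 2.94%) in that labelled VApcMinL. In the kit 3 pair they were 0.373% (8 of 2145, 95% interval 0.161 to 0.734%) and 0.157% (7 of 4448, 95% interval 0.0633 to 0.324%). The share was lower in the library labelled VApcMinL in both pairs, but the kit 2 and kit 3 libraries differed by more than the groups did. The mean difference was -1.14 percentage points, with group means of 2.39% ± 2.85 and 1.24% ± 1.54 (SD, n = 2 libraries each) and an exact two-sided permutation p of 0.667. Among non-epithelial cells the shares were 11.1% and 9.29% in the kit 2 pair and 2.93% and 1.46% in the kit 3 pair, a mean difference of -1.63 points with the same exact p of 0.667. Without the library labelled ApcMin replicate 1 both differences turned, to 0.872 and 2.44 points, and without that labelled VApcMinL replicate 2 the second was 2.29. Leaving out a library leaves unlike kits in the groups, so these values mix the gap between kits with that between groups. Within the kit 2 and kit 3 pairs the differences were -2.07 and -0.22 points of kept cells and -1.78 and -1.48 of non-epithelial cells. Set against the cells called fibroblasts, a class that also held mural cell RNA, endothelial cells were 51.5% and 53.1% of both in the kit 2 pair and 16.7% and 25.9% in the kit 3 pair. Here the library labelled VApcMinL was higher in both pairs, by 1.61 and 9.26 points, and the exact permutation p was 0.667. Without the library labelled VApcMinL replicate 1 or ApcMin replicate 2, again with unlike kits in the groups, the mean difference was -8.14 or -12.0 points. The direction thus depended on the cells counted against. With the highest doublet scores removed the kit 2 difference against fibroblasts became -0.67 points. Shares of dissociated cells count what survived digestion, and fewer cells and poorer release of a cell type cannot be told apart.

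**Figure D3:**
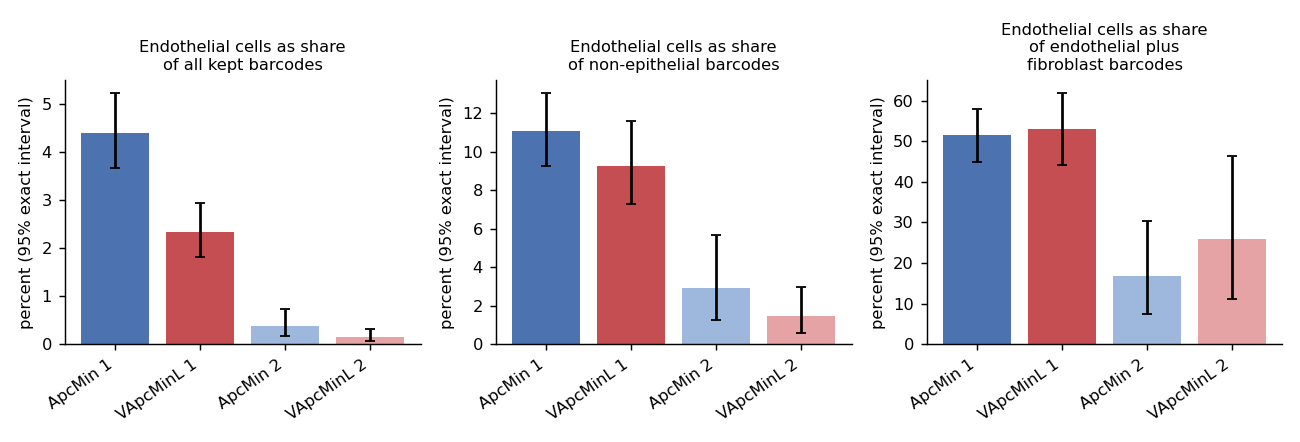
Endothelial cells of each library as percent of all kept cells, of non-epithelial cells and of endothelial plus fibroblast cells, with 95% exact binomial intervals for counting error. The share of kept cells ran from 4.40% down to 0.157%, and both kit 3 libraries lie below both kit 2 libraries in every panel.

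Gene expression in the endothelial cells was compared between the groups with UMIs summed per library and the kit as a block. Of 3851 genes tested by edgeR's quasi-likelihood test, 2 passed a Benjamini-Hochberg adjusted p of 0.05, or 0.0519%, of which 1 was higher (0.026%) and 1 lower (0.026%), with 102 genes at an unadjusted p under 0.05. Xist rose in the libraries labelled VApcMinL by 9.24 ± 0.51 on the log2 scale (SE; edgeR adjusted p = 0.00664), a fitted value that depends on the prior count since the libraries labelled ApcMin held 1 UMI. The ratio of the summed levels was 812, with an exact 95% interval for counting error of 145 to 32148. Jchain, the joining chain of secreted antibodies and a product of plasma cells, fell by 5.11 ± 0.32 (edgeR adjusted p = 0.00725). Its UMIs numbered 2309 and 42 with kit 2 and 2 and 0 with kit 3, and 1 cell held 68.0% of those of the library labelled ApcMin replicate 1. The Jchain call was lost when the 7 cells with over 1% red cell or immune UMIs were left out, a setting chosen after seeing the data, and the log2 difference was then -2.33. The call was also lost with at least 4 markers required (-3.62), without the kit as a block (-4.76) and with DESeq2 (-4.71). Among near-empty barcodes, which hold free RNA, Jchain stood at 6919.6 and 1812 CPM with kit 2 and 533 and 461 with kit 3. Leaving out 1 library, which removes the kit block too, gave 1 to 22 calls. Xist did not pass without the library labelled ApcMin replicate 2 (edgeR adjusted p = 0.181), and Jchain did not without it (0.363) or without that labelled VApcMinL replicate 1 (0.749). None of the genes in the endothelial lists passed.

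The 18 genes with the smallest unadjusted p after these, among those that differed in the same direction in both kit pairs at 20 CPM or more, did not pass, and their edgeR adjusted p ran from 0.463 to 1. They are given by their values. The first was 8430408G22Rik, at 1027 and 318 CPM with kit 2 and 573 and 150.1 with kit 3, lower in both libraries labelled VApcMinL and far lower in fibroblasts, where it was at most 4.94. Ccl21a stood at 3991 and 761 with kit 2 and 692 and 300.3 with kit 3, with a log2 difference of -2.05 ± 0.33 (edgeR adjusted p = 0.709). With 1 library and the kit block left out it ran from -0.37 (without that labelled ApcMin replicate 1) to -3.16 (without VApcMinL replicate 1). DESeq2 called Ccl21a at an adjusted p of 0.00451. It had a UMI in 19 and 9 cells of the kit 2 pair, where 19 and 11 cells carried the lymphatic set at like shares, so the gap there lay in the level within lymphatic carriers. In each kit 3 library 1 cell held all of its UMIs, and in the kit 2 library labelled ApcMin 1 cell held 38.6%.

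Fabp4, the leading gene of the cells, had a log2 difference of -0.74 ± 0.15 (edgeR adjusted p = 1), and the within-pair differences were -0.74 in the kit 2 pair and -0.74 in the kit 3 pair. Klf2, a factor that responds to the flow of blood (chr8:72319033-72321656, plus strand), stood at 2434 and 1285 CPM with kit 2 and 1075 and 601 with kit 3, lower in the library labelled VApcMinL of each pair, with a log2 difference of -0.96 ± 0.19 (edgeR adjusted p = 1). With 1 library and the kit block left out it ran from -0.19 (without that labelled ApcMin replicate 1) to -1.72 (without VApcMinL replicate 1), with -0.52 without VApcMinL replicate 2 and -1.48 without ApcMin replicate 2, whereas that of Fabp4 ran from -0.56 to -0.95. Its relative Klf4 stood at 659 and 340.1 with kit 2 and 334 and 95.5 with kit 3. Ptprr, a phosphatase of MAP kinases, stood at 219 and 61.3 with kit 2 and 107 and 13.6 with kit 3, Rnd1, a small GTPase that loosens adhesion, at 438 and 184 with kit 2 and 131 and 40.9 with kit 3, and Mgll at 815 and 474 with kit 2 and 1337 and 546 with kit 3. All 4 were lower in the library labelled VApcMinL of each pair. Krt20, a keratin of differentiated epithelium, and Ruvbl1, an ATPase of chromatin complexes, were the 2 of the 18 that were higher, and both rested on 1 UMI in the kit 3 library labelled ApcMin. Ddx3y and Defa30, a Paneth cell defensin from a family of near-identical copies, completed the set with genes of sex and of epithelium. The other 6 were immediate early genes. Without the filter on low counts 44 of 13368 genes passed, 12 higher and 32 lower, among them Ccl21a, Cxcl12, Fos, Zfp36, Klf2 and Fabp4 but also the mast cell genes Cpa3 and Fcer1g, and why the filter alters these calls was not tested.

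**Figure D4:**
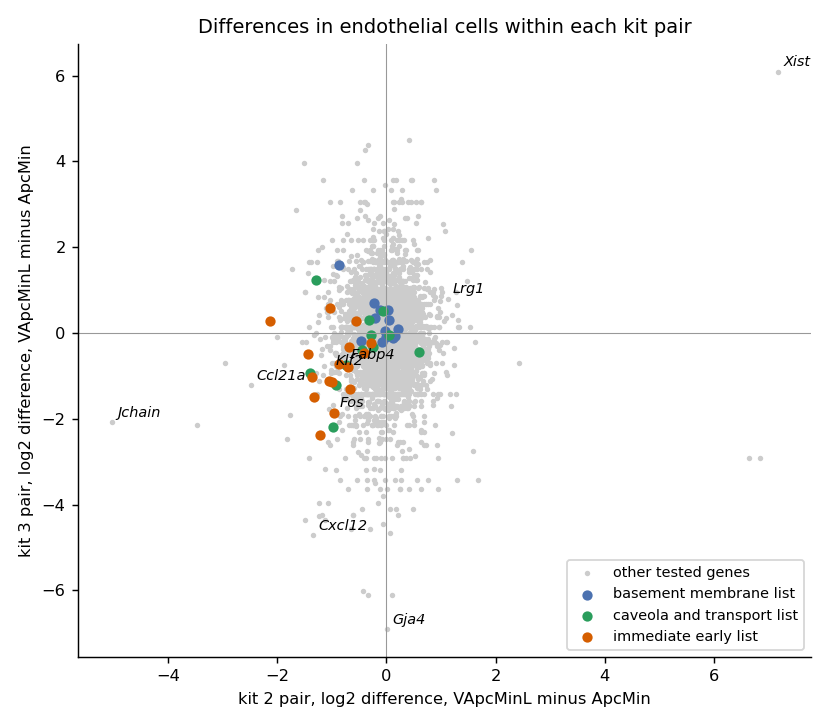
Log2 difference of each of 3851 tested genes in endothelial cells, library labelled VApcMinL minus library labelled ApcMin, in the kit 2 pair (horizontal) against the kit 3 pair (vertical), with 3 gene lists in color. Xist lies far to the upper right at 7.17 and 6.09, 13 of 16 immediate early genes lie at the lower left, below 0 in both pairs, as do 7 of 12 caveola and transport genes and 2 of 13 basement membrane genes. Of all tested genes 26.1% lie below 0 in both pairs.

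Immediate early and stress genes, which cells switch on within minutes of a stimulus, mostly had lower values in the libraries labelled VApcMinL, and none passed the test. Of the 16 genes, all tested, 13 were lower in both kit pairs and none was higher in both, where 26.1% of all tested genes were lower in both pairs and 23.9% higher in both. By edgeR 11 had an unadjusted p under 0.05, all lower, as had 71 of all 3851 tested genes. The median log2 difference of the list was -0.85, beside -0.0059 over all genes tested. Fos (chr12:85473890-85477273, plus strand), the partner of Jun in the factor AP-1, stood at 3051 and 1678 CPM with kit 2 and 1134 and 314 with kit 3. Its log2 difference was -1.31 ± 0.26 (edgeR adjusted p = 1). With 1 library left out, and the kit block with it, the difference was -0.17 without that labelled ApcMin replicate 1, -0.39 without VApcMinL replicate 2, -1.70 without ApcMin replicate 2 and -2.91 without VApcMinL replicate 1. The kit 3 level labelled ApcMin was below the kit 2 level labelled VApcMinL, so the groups overlapped in Fos unless kits were compared apart.

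The other members of the list with the smallest p were of the same kind. Atf3, a stress-induced factor, stood at 461 and 192 CPM with kit 2 and 239 and 81.9 with kit 3, and Zfp36, which destabilizes inflammatory mRNAs, at 839 and 382 with kit 2 and 513 and 95.5 with kit 3. Egr1 stood at 754 and 404 with kit 2 and 537 and 246 with kit 3, Fosb at 424 and 173 with kit 2 and 251 and 123 with kit 3 and Jun at 1789 and 1057 with kit 2 and 967 and 601 with kit 3. In each of these 5 genes the library labelled VApcMinL was the lower of its pair. The 3 genes that did not follow in both pairs were Ier3 (-0.56 in the kit 2 pair and 0.29 in the kit 3 pair on the log2 scale), Socs3 (-1.02 in the kit 2 pair and 0.58 in the kit 3 pair) and Hspa1b (-2.13 in the kit 2 pair and 0.29 in the kit 3 pair), the last with a near-identical copy in Hspa1a.

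The summed level of the 16 genes in endothelial cells was 16088 and 9679 CPM with kit 2 and 7546 and 4381 with kit 3. In fibroblasts it was 11251 and 7856 with kit 2 and 3229.6 and 4128 with kit 3, and in epithelial cells 4327 and 3900.0 with kit 2 and 3731 and 3719 with kit 3. In fibroblasts the sum was thus lower under the VApcMinL label with kit 2 and higher with kit 3, and by log2 of CPM plus 1 the genes lower in both pairs numbered 13 in endothelial cells, 6 in fibroblasts and 4 in epithelial cells. The share of all 3851 genes lower in both pairs on that scale was 20.3%, 15.2% and 4.91%. The difference between cell types was not tested. In near-empty barcodes the sum was 4434 and 4020.4 with kit 2 and 2899 and 2694 with kit 3, and the median mitochondrial share of an endothelial cell was 2.27% and 2.56% with kit 2 and 4.45% and 3.17% with kit 3. These genes also respond to enzymatic dissociation, whose part in the result was not tested. The count stayed at 13 in the 9 alternatives of edgeR that kept all 4 libraries and each cell's full depth, was 11 with each cell thinned to 1000 UMIs, and was not taken with DESeq2. The mitochondrial limit of 10% and the fit without the kit block could not change the count. The highest mitochondrial share of an endothelial cell was 9.81%, and the within-pair differences do not use the block. Without the library labelled ApcMin replicate 1, a fit that cannot carry the kit as a block, the differences of Junb, Jund and Ier2 became 0.55, 0.23 and 0.13.

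**Figure D5:**
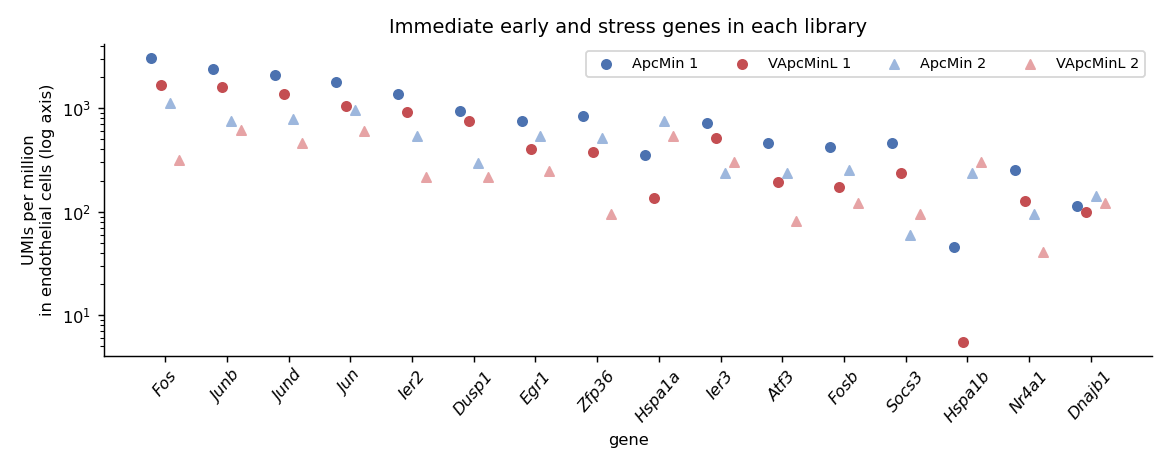
CPM (log axis) of 16 immediate early and stress genes in the endothelial cells of each library; circles are the kit 2 pair and triangles the kit 3 pair. In both pairs the library labelled VApcMinL (red shades) lies below that labelled ApcMin (blue shades) for 13 of the 16 genes, among them Fos, Jun, Egr1 and Zfp36.

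Genes of caveolae and of transport across the capillary wall were more often lower than higher in the libraries labelled VApcMinL, and none passed the test. Of 12 caveola and transport genes, all tested, 7 were lower in both pairs and none higher in both, with a median of -0.29. Over all tested genes 26.1% were lower in both pairs and 23.9% higher in both, which also stands beside the list counts that follow. Of all 3851 tested genes 71 were lower at an unadjusted p under 0.05 by edgeR. Such a p was reached by 4 of the 12, all lower. Besides Fabp4 these were the fatty acid carriers Cd36, at 222 and 117 CPM with kit 2 and 513 and 109 with kit 3, and Fabp5, at 433 and 243 with kit 2 and 657 and 287 with kit 3, and the caveolin Cav2, at 250.3 and 97.6 with kit 2 and 263 and 136 with kit 3. Their log2 differences were -1.47 ± 0.39, -1.06 ± 0.27 and -1.29 ± 0.34 (edgeR adjusted p = 1 for each). Cd36 in the kit 3 library labelled VApcMinL came from 1 cell. Plvap differed by -0.17 ± 0.17 and Cavin1 stood at 355 and 304 with kit 2 and 310.4 and 396 with kit 3.

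Of 7 capillary genes 5 were lower in both pairs and none higher in both, against 26.1% and 23.9% of all tested genes. The list shares Fabp4 and Cd36 with the caveola and transport list, so these counts are not separate results. Car4 stood at 319 and 187 CPM with kit 2 and 215 and 13.6 with kit 3. Car4 is an enzyme of the luminal surface, and 1 UMI made up its level in the last library. Of 3 tested arterial genes 2 were lower in both pairs. Gja4 stood at 167 and 181 with kit 2 and 872 and 0 with kit 3, but 1 cell held 93.2% of its UMIs in the kit 3 library labelled ApcMin. Ly6c1, a surface protein of capillary endothelium from a multigene family, stood at 1665 and 1168 with kit 2 and 1254 and 205 with kit 3 with a log2 difference of -1.35 ± 0.45 (edgeR adjusted p = 1). That difference ran from -0.37 without the library labelled VApcMinL replicate 2 to -2.98 without VApcMinL replicate 1, each without the kit block.

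Among venous genes the values went both ways. Lrg1 (chr17:56119678-56122001, minus strand), a secreted glycoprotein that promotes vessel growth, stood at 465 and 1093 CPM with kit 2 and 119 and 218 with kit 3, higher in the library labelled VApcMinL of each pair, with a log2 difference of 1.05 ± 0.27 (edgeR adjusted p = 1). Without the library labelled VApcMinL replicate 1, and so without the kit block, it was -0.71. Selp stood at 159 and 318 with kit 2 and 107 and 232 with kit 3, higher in the library labelled VApcMinL of each pair. Aplnr, the receptor for apelin, belongs to the vasoactive and not the venous list. It stood at 189.7 and 516 with kit 2 and 215 and 273 with kit 3, also higher in that library of each pair. Vwf, the clotting factor carrier, stood at 530.0 and 357 with kit 2 and 382 and 246 with kit 3 and was lower in each. Of the 7 tested venous genes 3 were higher in both pairs and 3 lower in both, with a median of 0.16.

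Genes of leukocyte traffic were tested as 7 of 13, of which 1 was higher in both pairs and 4 lower in both. Cxcl12 (chr6:117168535-117181367, plus strand), which attracts cells that carry Cxcr4, stood at 837 and 348 CPM with kit 2 and 883 and 27.3 with kit 3 in endothelial cells, with a log2 difference of -2.22 ± 0.62 (edgeR adjusted p = 1). With 1 library and the kit block left out it ran from -1.33 (without that labelled VApcMinL replicate 2) to -5.09 (without VApcMinL replicate 1). It was found in 82 of 123 and 33 of 69 cells in the kit 2 pair and in 5 of 8 and 1 of 7 in the kit 3 pair. Icam1, a ligand of leukocyte integrins that inflammation raises, was not tested because of low counts and its UMIs numbered 90 and 13 with kit 2 and 0 and 2 with kit 3. Cd34, Icam2 and Madcam1 did not pass.

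Tip cell genes went opposite ways in the pairs. Of the 10, all tested, 9 were lower in the library labelled VApcMinL with kit 2 and 9 were higher in it with kit 3, where 1960 and 1872 of all 3851 genes were, and the median was 0.04. Esm1 stood at 532 and 354 CPM with kit 2 and 215 and 300.3 with kit 3 and Apln at 139 and 137 with kit 2 and 119 and 437 with kit 3. Of 6 tested VEGF genes none was higher in both pairs and 3 were lower in both. Kdr differed by -0.41 ± 0.21 and Emcn by 0.28 ± 0.23 (edgeR adjusted p = 1 for each). In the Tie and BMP lists, Ptprb differed by -0.95 ± 0.31 and the receptor Tgfbr2 by -1.16 ± 0.43, both lower in each pair (edgeR adjusted p = 1). Epas1 differed by -0.95 ± 0.37. In the Notch list 1 of 7 tested genes was higher in both pairs and 2 lower in both.

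Matrix genes of the vessels gave no common direction. The 13 tested basement membrane genes had log2 differences between -0.32 and 0.23, and 3 were higher in both pairs and 2 lower in both, with a median of 0.03. Igfbp7 differed by 0.12 in the kit 2 pair and -0.11 in the kit 3 pair on the log2 scale and Sparc by 0.21 in the kit 2 pair and 0.08 in the kit 3 pair. Of 21 endothelial markers outside the rule 7 were higher in both pairs and 7 lower in both, with a median of -0.000106. Cdh5 and Egfl7 were among the higher and Ly6c1, Ptprb and Robo4 among the lower.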

How the data were processed

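Single-cell suspensions of unsorted adenomas were sequenced as 3' tag libraries. The deposited matrices hold raw UMI counts per gene and barcode, which the authors made with Cell Ranger (2.1.1 in the methods, 3.1.0 in the header of the kit 3 matrices) on mm10, with no barcode filter. The authors' later steps in Seurat 3.1.1 were not used. The 27514 genes shared by both kits were kept. Total counts were 44660305 and 49009488 with kit 2 and 98714025 and 128247396 with kit 3, and endothelial counts were summed per library. The test was edgeR 4.0.16 (R 4.3.3) quasi-likelihood with TMM scaling, a filter at a minimum count of 10, the kit as a block and Benjamini-Hochberg adjustment over all tested genes. It was also run on simulated counts, which held no kit effect and so do not check the block. DESeq2 1.42.0, other scaling, filters, limits and left-out libraries were tried. The pairing comes from the kit version, and deviations of libraries of 1 kit correlated at 0.283 over 3851 genes, a value that 2 pairs fix up to its sign. Levels are CPM (UMIs per 1000000 UMIs of the same cells) without TMM, and log2 differences use TMM. Doublets were scored with Scrublet (scanpy 1.11.5) at 0.8% per 1000 cells and removed only as an alternative. Intervals are exact (Clopper-Pearson) and cover counting error only, as does the limit of 3 counts given for a count of 0. Shares were compared by exact permutation of library labels (scipy 1.17.1). Other cells were called epithelial at 0.2% or more of UMIs from Epcam, Krt8 and Krt19, and fibroblast where, below that, they held more than 2 UMIs of Dcn and Col1a1, fewer than 3 endothelial markers and no Ptprc. Coordinates are those of the GRCm38 annotation.

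The cells, gene lists and marker sets were chosen with earlier results of these data known. Named genes were those called, filled up to 20 by the smallest p among genes with 1 direction in both pairs and at least 20 CPM, the 15 highest over other cells, the 4 most abundant of each list and the label checks. The 15 were taken among genes detected in a minimum share of endothelial cells of each library. Other list members were named for their role or, where their unadjusted p was under 0.05, after their values were seen.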

Additional observations from a re-analysis of the deposited data

Results flagged for a closer look

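The shares of endothelial cells that carried the capillary and the tip cell sets differed in direction between the kits, which is what brought them here. For the capillary set the library labelled VApcMinL minus that labelled ApcMin was -21.7 percentage points in the kit 2 pair and 37.5 in the kit 3 pair. For the tip cell set the differences were -6.26 and 32.1 points. Each pair holds 1 library a group, so the difference between the pairs was not tested, and the kit 3 values rest on 8 and 7 cells.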

How the results depend on the processing

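The edgeR calls numbered 2 of 3851 genes, and 2 again with DESeq2 (Xist and Ccl21a), RLE factors, a floor of 2000 UMIs, a mitochondrial limit of 10%, doublets removed and, added after seeing the data, lymphatic carriers left out. The limit of 10% removed no endothelial cell, so its calls could not differ from the main ones. There was 1 call with at least 4 markers and 1 without cells holding red cell or immune RNA, 44 without the low-count filter, and 0 of 683 genes (23 at an unadjusted p under 0.05) with cells thinned to 1000 UMIs, where fewer genes were tested. With no replicate block there was 1 call. The replicate block left the mean share differences at -1.14, -1.63 and 5.44 points, with an exact sign-flip p of 0.5 each, the smallest that 2 pairs allow. Leaving out each library gave 1 to 22 calls.

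For shares of kept, non-epithelial and endothelial plus fibroblast cells, leaving out a library moved the difference over -3.15 to 0.872, -5.70 to 2.44 and -12.0 to 22.8 points. For the sets it moved over -13.1 to 28.9 (capillary), -4.07 to 10.4 (arterial), 1.58 to 19.5 (venous), -3.31 to 29.2 (tip cell), -0.33 to 2.61 (lymphatic) and -1.80 to 1.45 (cycling). Leaving out a library leaves unlike kits in the groups, so these ranges also hold the gap between kits. Arterial differences turned to -12.8 with 1 marker, -0.39 without thinning and -3.69 at 2000 UMIs. Tip cell differences turned to -0.99 with 1 marker and -0.49 at 2000 UMIs, the lymphatic one to -7.14 without thinning, and cycling ones to 12.2 with 1 marker and 17.7 without thinning, against -7.49 at 2000 UMIs. Venous differences ran from 0.318 without thinning to 22.3 with 1 marker, and capillary ones from 0.0353 with 1 marker to 2.17 without thinning. The cause was not tested.

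Of the 46 genes whose difference was refitted, 39 kept their direction in each setting that could give a value (660 values in all). Ramp2 turned to -0.0068 without lymphatic carriers and -0.0452 without the library labelled ApcMin replicate 2. Without that labelled ApcMin replicate 1, Plvap was 0.0943, Eng 0.0377, Junb 0.55, Jund 0.23 and Ier2 0.13. Eng was 0.14 without that labelled VApcMinL replicate 2, and Lrg1 -0.71 without VApcMinL replicate 1. Depth limits the kit 3 values, which rest on 15 cells.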

Other observations

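Of 19 endothelial transcription factor genes 16 were tested, and 3 were higher and 7 lower in both kit pairs in the libraries labelled VApcMinL, with a median log2 difference of -0.21, none past the edgeR test. Over all tested genes 23.9% were higher and 26.1% lower in both pairs. Ets1, a factor of vessel growth, stood at 334 and 440.5 CPM with kit 2 and 537 and 505 with kit 3. Erg, which maintains endothelial identity, was in 78 of 207 cells and Fli1, its relative, in 84. Sox17 stood at 221 and 162 with kit 2 and 501 and 40.9 with kit 3. Of the 15 vasoactive genes 5 were higher and 4 lower in both pairs, and Nos3, which makes nitric oxide, stood at 91.6 and 78.1 with kit 2 and 119 and 191 with kit 3. Junction genes (10 tested) counted 4 higher and 1 lower in both pairs with a median of 0.00132.

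Antigen presentation genes were measured at high levels with kit 2. B2m, the light chain of class I molecules, stood at 2987 and 3139 CPM with kit 2 and 1636 and 682 with kit 3 in endothelial cells, lowest in the kit 3 library labelled VApcMinL. The 12 genes of the list summed to 6230 and 6203 with kit 2 and 4334 and 2115 with kit 3. In near-empty barcodes they summed to 5240 and 5604 with kit 2 and 3315 and 1746 with kit 3. With kit 3 the sum was also lower under the VApcMinL label in epithelial cells (1901 and 813) and fibroblasts (2798 and 1846). With kit 2 it was higher there (1107 and 1877, 3605 and 4672). Whether the lower kit 3 values were particular to endothelial cells was not tested. Of 7 tested genes of the list 5 were lower in both pairs and 1 higher, against 26.1% and 23.9% of all tested genes, with a median of -0.52. Cd74, the invariant chain of class II molecules and a product of immune cells too, stood at 309 and 94.8 with kit 2 and 0 and 13.6 with kit 3. Ifitm3, an interferon-induced membrane protein, stood at 2929 and 3259 with kit 2 and 2973 and 2184 with kit 3, and 2 of 6 tested interferon genes were lower in both pairs. Among hypoxia genes 2 of 6 tested were lower in both and none higher in both, and among tested lymphatic genes 3 of 6 were. None of these genes passed the edgeR test.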
